A study of Mus musculus with 6 samples.

Results

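The neurotrophins and their receptors were followed in bulk RNA-seq of the right hippocampus of 6 mice. The set held 7 genes out of 54752 in the count data, chosen by symbol: the ligands Bdnf, Ntf3 and Gdnf, the receptor tyrosine kinases Ntrk2 and Ntrk3, and the co-receptors Ngfr and Sort1. All mice were wild-type C57BL/6 males (C57BL/6 J in the methods) with a labelled time of 14 weeks, read here as their age. In 3 BCAS mice (bilateral carotid artery stenosis) microcoils were placed around both common carotid arteries, with the narrower coil on the right, and 3 Sham mice had the same surgery without coils. The hippocampus was taken 3 weeks after surgery, 1 library was made per mouse, and the comparison asks how lasting hypoperfusion, a shortage of blood supply, changed hippocampal transcripts. The tissue was the entire right hippocampus with all its cell types. In such RNA, fewer cells of a type and less RNA per cell cannot be told apart.

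Neurotrophins are secreted as larger proforms that proteases cut to the mature ligand. Mature BDNF acts through TrkB (the product of Ntrk2) and mature neurotrophin-3 (Ntf3) mainly through TrkC (Ntrk3), both tyrosine kinases that support neuronal survival, dendrites and synaptic strength, and the proforms bind p75 (Ngfr) together with sortilin (Sort1). In the hippocampus Bdnf is made by excitatory neurons in an activity-dependent way and is required for lasting synaptic potentiation. Gdnf belongs to the TGF-beta superfamily rather than to the neurotrophins, and signals through Gfra1 and Ret.

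The libraries held 29652456 to 35607098 counts, and a floor of 3 counts corresponded to 0.0875 to 0.0995 CPM (counts relative to the library total, scaled by TMM, the trimmed mean of M values). The neuronal markers of the hippocampus were present, and the summed CA1 pyramidal markers ran from 723.9 to 916.8 CPM in Sham and from 409.2 to 567.3 CPM in BCAS mice. Among 16 lists of cell type markers, choroid plexus RNA varied most between libraries. Its 6 markers summed to 991.8, 4093 and 71.1 CPM in Sham mice 1, 2 and 3, and to 5944, 40.9 and 3229 CPM in BCAS mice 1, 2 and 3, and 0 of the 6 passed the test between the groups by edgeR, DESeq2 or limma-voom, also 0 at an unadjusted p under 0.05.

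Of the 7 genes, 6 had enough counts to be tested, Bdnf, Ntf3, Ntrk2, Ntrk3, Ngfr and Sort1. Ntrk2 rose in BCAS mice, Bdnf, Ntrk3 and Sort1 fell, and Ntf3 and Ngfr did not pass an adjusted p of 0.05 (edgeR quasi-likelihood test, Benjamini-Hochberg adjustment over 18617 genes). Many other genes passed as well: 31.3% of all tested genes did so, 18.0% with higher and 13.2% with lower values after BCAS, so a call of 4 in 6 is to be read beside that share. Bdnf alone met the threshold for a differentially expressed gene (DEG), which also needs an absolute log2 fold change above 1 and was met by 0.999% of tested genes in the lower direction and 8.47% in the higher. The groups did not overlap in CPM for 5 of the 6 genes, against 48.0% of all tested genes. The median log2 fold change over the 6 genes was -0.53, and over all tested genes 0.02.

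**Figure D1:**
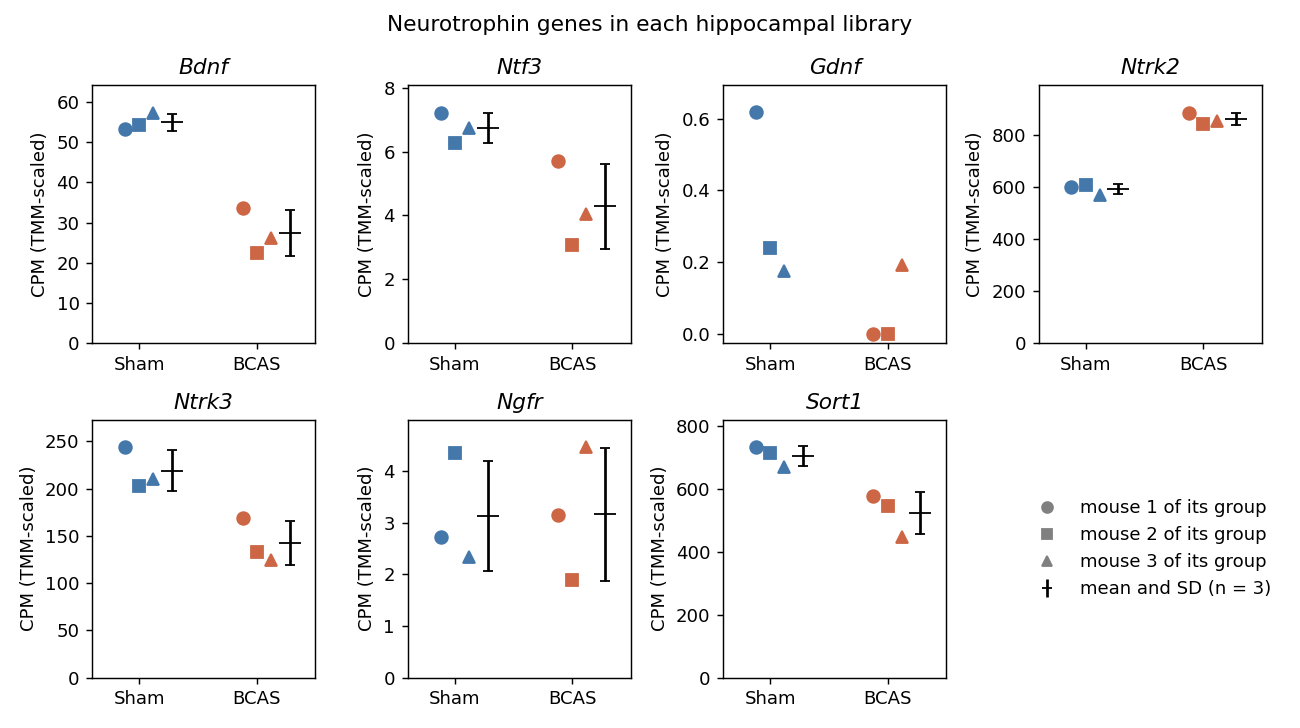
CPM (TMM-scaled) of each of the 7 genes in the 3 Sham and 3 BCAS libraries. Circles, squares and triangles are mice 1, 2 and 3 of each group, and the bars are the mean and SD, left out for Gdnf, which lay near the floor. The groups are apart for Bdnf, Ntf3, Ntrk2, Ntrk3 and Sort1 and overlap for Ngfr and Gdnf.

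Bdnf, the ligand of TrkB, had the largest fitted decrease of the 6 genes. It spans chr2:109674700-109727007 on the plus strand (ENSMUSG00000048482.14, mm10), with 9 merged exons and 6217 bp of exon. Counts were 1806, 1814 and 1969 in Sham mice 1, 2 and 3, and 1094, 676 and 816 in BCAS mice 1, 2 and 3. In CPM these were 53.3, 54.3 and 57.4 in Sham (55.0 ± 2.14, SD, n = 3) and 33.7, 22.4 and 26.2 in BCAS (27.4 ± 5.73, SD, n = 3). Every BCAS library was below every Sham library, and BCAS mouse 1 kept the most Bdnf and BCAS mouse 2 the least. Its log2 fold change was -1.004 (SE 0.14, 95% interval -1.32 to -0.69), or 0.499 times the Sham level, with an adjusted p of 0.000922 by edgeR's quasi-likelihood test. The decrease lay at the DEG threshold itself: over 15 alternative settings Bdnf passed the test in 15, and its log2 fold change was below -1 in 10, with -0.89 as its smallest fall when BCAS mouse 2 was left out and -1.18 as its largest when BCAS mouse 1 was left out. An antisense gene, Gm45346, shares 896 bp (14.4%) of the Bdnf exons. Strand was ignored and reads lying on both genes were counted for neither, so reads from that stretch are missing from the Bdnf counts in every library. Gm45346 had 1 to 5 counts per library outside it.

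Transcription of Bdnf starts at several alternative first exons, which gene-level counts merge, and activity-dependent transcription is textbook background for some of them. RefSeq gave 7 start sites for Bdnf on GRCm38.p6 (mm10), and the 250 bases before each were searched on both strands for the cyclic AMP response element (CRE, TGACGTCA), its half-site TGACG, which also lies inside the full CRE, the E-box CACGTG and the GC box GGGCGG. None of the 13 windows found for 5 of the 7 genes held the exact letters of the full CRE. These letters were in 1.55% of all 32851 RefSeq windows of that length, and near matches were not searched. The half-site was in 2 of the 13 windows, 1 of the 7 of Bdnf and 1 of Gdnf, and in 17.8% of all windows. The E-box was in 1 of the 13, a window of Ntf3, and in 6.02% of all windows. The first window shown holds that half-site on the minus strand, so the printed plus strand reads CGTCA. The second holds 2 GC boxes, a motif in 5 of the 13 windows and in 32.7% of all windows. Both are plus-strand sequence outside the annotated exons of Bdnf, chr2:109692186-109692435 and chr2:109676782-109677031, with the motifs in capitals. They are shown because Bdnf fell furthest of the 6 genes. A match of letters, or the lack of one, is a description of the window, and binding was not tested.
Bdnf window with the half-site: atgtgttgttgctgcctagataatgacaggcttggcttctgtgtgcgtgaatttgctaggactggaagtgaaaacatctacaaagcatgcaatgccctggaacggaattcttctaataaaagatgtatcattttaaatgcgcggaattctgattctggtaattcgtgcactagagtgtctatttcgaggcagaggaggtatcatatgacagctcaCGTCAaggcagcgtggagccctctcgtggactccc
Bdnf window with GC boxes: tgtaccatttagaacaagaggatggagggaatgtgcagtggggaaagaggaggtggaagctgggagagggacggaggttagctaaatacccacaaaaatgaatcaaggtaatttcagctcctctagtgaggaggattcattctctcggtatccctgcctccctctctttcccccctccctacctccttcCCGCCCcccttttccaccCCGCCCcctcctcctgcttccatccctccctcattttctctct

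Ntf3, which encodes neurotrophin-3, had lower values in BCAS mice but did not pass the test. The gene lies at chr6:126101412-126166910 on the minus strand (ENSMUSG00000049107.13), with 3 merged exons and 1714 bp of exon. It had 245, 210 and 231 counts in Sham mice 1, 2 and 3, and 186, 93 and 126 in BCAS mice 1, 2 and 3. The means were 6.75 ± 0.473 CPM in Sham and 4.28 ± 1.34 CPM in BCAS (SD, n = 3 each). The groups did not overlap, but BCAS mouse 1, at 5.73 CPM, lay close to the lowest Sham mouse, at 6.29 CPM. For Ntf3 the log2 fold change was -0.65 (SE 0.23, 95% interval -1.17 to -0.14), with an adjusted p of 0.056 by edgeR's quasi-likelihood test. Ntf3 passed in 7 of 15 alternative settings, with adjusted p from 0.0118 to 0.152 and negative values in all 15. Without BCAS mouse 1 it passed, at a log2 fold change of -0.92 and an adjusted p of 0.0118. RefSeq gave 2 start sites for Ntf3. The window shown, chr6:126164961-126165210 on the minus strand (GRCm38.p6), lies outside the annotated exons of Ntf3 and holds 1 GC box, in capitals. The other window, chr6:126166745-126166994, holds the E-box and 1 GC box and is not shown because 166 of its bases are annotated exon of Ntf3.
Ntf3 window with a GC box: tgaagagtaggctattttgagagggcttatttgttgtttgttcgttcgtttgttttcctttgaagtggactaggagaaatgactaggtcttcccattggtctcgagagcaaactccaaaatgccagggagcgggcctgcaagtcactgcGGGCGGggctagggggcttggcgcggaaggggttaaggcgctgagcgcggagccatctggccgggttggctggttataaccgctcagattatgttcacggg

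Gdnf, the ligand of the Gfra1 and Ret receptor complex, was close to the floor and was not tested. It lies at chr15:7810846-7837575 on the plus strand (ENSMUSG00000022144.4). It had 21, 8 and 6 counts in Sham mice 1, 2 and 3, and 0, 0 and 6 in BCAS mice 1, 2 and 3. Sham mouse 1 was highest, the other Sham mice and BCAS mouse 3 were alike, and in BCAS mice 1 and 2 a count of 0 allows up to 0.0923 and 0.0995 CPM. With no filter on low counts, edgeR fitted a log2 fold change of -2.37 for Gdnf, with an unadjusted p of 0.0287 and an adjusted p of 0.122, and DESeq2 gave -2.44, with an unadjusted p of 0.0606 and an adjusted p of 0.154, so the lower values in BCAS mice did not pass the test by either tool. Ntf5, which encodes neurotrophin-4, a further ligand of TrkB that is not among the 7 genes, had 3, 9 and 7 counts in Sham mice and 25, 9 and 11 in BCAS mice 1, 2 and 3, and lay below the low-count filter of the main test. In CPM its groups did not overlap, with 0.0885, 0.269 and 0.204 in Sham mice and 0.770, 0.298 and 0.353 in BCAS mice 1, 2 and 3. With the filter at a mean of 10 counts the log2 fold change of Ntf5 was 1.33, with an adjusted p of 0.119 by edgeR, and it passed in 0 of the 9 settings that tested it by edgeR or DESeq2 (adjusted p from 0.0963 to 0.446), with an unadjusted p under 0.05 in 1 of them.

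Ntrk2, which encodes TrkB, was the only gene of the 6 that rose. It spans chr13:58806569-59133970 on the plus strand (ENSMUSG00000055254.15), with 23 merged exons. Its level was 600.7, 606.5 and 570.1 CPM in Sham mice 1, 2 and 3 (592 ± 19.6, SD, n = 3), and 885.4, 842.0 and 851.3 CPM in BCAS mice 1, 2 and 3 (860 ± 22.8, SD, n = 3). Within each group the mice lay close together, and the lowest BCAS mouse was above the highest Sham mouse by far more than either spread. The log2 fold change was 0.54 (SE 0.09, 95% interval 0.33 to 0.74), or 1.45 times the Sham level, with an adjusted p of 0.00257 by edgeR's quasi-likelihood test. Ntrk2 passed in 15 of 15 alternative settings, with log2 fold changes from 0.51 to 0.61. Ntrk2 makes a full-length kinase receptor, typical of neurons, and truncated receptors without the kinase, which astrocytes make in quantity, and gene-level counts add these forms together. RefSeq gave 1 start site for Ntrk2. The 250 bases before it, chr13:58806319-58806568 on the plus strand (GRCm38.p6), are shown beside those of the ligands since Ntrk2 moved the other way, and they held none of the 4 motifs.
Ntrk2 window: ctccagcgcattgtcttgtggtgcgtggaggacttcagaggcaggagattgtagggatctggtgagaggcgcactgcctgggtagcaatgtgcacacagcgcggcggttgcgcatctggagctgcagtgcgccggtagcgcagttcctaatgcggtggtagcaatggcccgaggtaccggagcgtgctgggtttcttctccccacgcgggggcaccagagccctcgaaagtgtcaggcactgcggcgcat

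The 8 astrocyte markers moved with Ntrk2. Of these 8, 7 rose, beside 18.0% of all tested genes. The summed level of the 8 markers was 4711, 4487 and 4411 CPM in Sham mice 1, 2 and 3, and 9973, 9429 and 9638 CPM in BCAS mice 1, 2 and 3. Gfap, the intermediate filament of reactive astrocytes, made up 3678 of the mean sum of 9680 CPM in BCAS mice, and the median log2 fold change over the list was 0.74. Within the BCAS group the order of Ntrk2 was mouse 1, then 3, then 2, as for the astrocyte sum. Within the Sham group the orders differed, with mouse 2, then 1, then 3 for Ntrk2 and mouse 1, then 2, then 3 for the astrocyte sum. An order of 3 mice is a description only. The 8 microglial markers, all of which rose, summed to 308.9 to 321.5 CPM in Sham and 1827 to 2948 CPM in BCAS mice, with BCAS mouse 3 highest. The part of either cell type in the Ntrk2 result was not tested.

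Ntrk3, which encodes TrkC, fell. It spans chr7:78175959-78738012 on the minus strand (ENSMUSG00000059146.12), with 43 merged exons, and it too has kinase and truncated forms that the counts merge. Its level was 243.8, 203.0 and 210.2 CPM in Sham mice 1, 2 and 3 (219 ± 21.8, SD, n = 3), and 168.9, 133.4 and 124.9 CPM in BCAS mice 1, 2 and 3 (142 ± 23.4, SD, n = 3). The groups did not overlap. The log2 fold change was -0.62 (SE 0.12, 95% interval -0.90 to -0.34), with an adjusted p of 0.00602 by edgeR's quasi-likelihood test. Ntrk3 passed in 15 of 15 alternative settings, with log2 fold changes from -0.76 to -0.54. An antisense gene in its introns, Gm9885, shares 0 bp with its exons and was picked out after its values were seen. Gm9885 had 221, 208 and 230 counts in Sham mice and 126, 143 and 85 in BCAS mice 1, 2 and 3. Strand was ignored, so reads from unspliced Ntrk3 RNA over that stretch would count for Gm9885. They cannot be told apart from reads of Gm9885 itself.

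Sort1, which encodes sortilin, the co-receptor for proneurotrophins and a sorting receptor that also carries proBDNF inside the cell, fell by less. It spans chr3:108284082-108361511 on the plus strand (ENSMUSG00000068747.14), with 20 merged exons. Its level was 732.2, 713.6 and 670.1 CPM in Sham mice 1, 2 and 3 (705 ± 31.9, SD, n = 3), and 577.1, 545.7 and 447.0 CPM in BCAS mice 1, 2 and 3 (523 ± 67.9, SD, n = 3). BCAS mouse 3 was lowest, and the groups did not overlap. The log2 fold change was -0.43 (SE 0.11, 95% interval -0.69 to -0.17), with an adjusted p of 0.0205 by edgeR's quasi-likelihood test. Sort1 no longer passed without Sham mouse 1 (log2 fold change -0.41, adjusted p = 0.0783) or without Sham mouse 2 (log2 fold change -0.42, adjusted p = 0.0707). An antisense gene, Gm12523, with 0 to 4 counts per library, shares 338 bp (4.47%) of the Sort1 exons, and reads from that stretch were likewise counted for neither gene.

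Ngfr, which encodes p75, showed no detectable difference. It lies at chr11:95568818-95587735 on the minus strand (ENSMUSG00000000120.6), with 6 merged exons. Counts were 92, 145 and 80 in Sham mice 1, 2 and 3, and 102, 57 and 139 in BCAS mice 1, 2 and 3. The means were 3.13 ± 1.07 CPM in Sham and 3.16 ± 1.28 CPM in BCAS mice (SD, n = 3 each), and the groups overlapped throughout. For Ngfr the log2 fold change was 0.02 (SE 0.35), with an adjusted p of 0.978 by edgeR's quasi-likelihood test. Its 95% interval, -0.77 to 0.81, leaves room for a change as large as that of Ntrk3 or Ntrk2.

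The Ngfr level went with the choroid plexus and, in part, the ependymal markers over the libraries. The 3 libraries with the most Ngfr, BCAS mouse 3 at 4.46 CPM, Sham mouse 2 at 4.34 CPM and BCAS mouse 1 at 3.14 CPM, were also the 3 with the most choroid plexus RNA, and BCAS mouse 2 was lowest in both. The summed ependymal markers were also highest in these 3 libraries, at 51.8 CPM in BCAS mouse 3, 49.9 CPM in BCAS mouse 1 and 29.5 CPM in Sham mouse 2, while their lowest library was Sham mouse 3. With the choroid plexus level as a covariate, a fit added after the data were seen, the log2 fold change of Ngfr was -0.07 with an adjusted p of 0.851 by edgeR. Cholinergic neurons of the basal forebrain and Schwann cells are the textbook sites of p75 in adults. The summed cholinergic markers were at 0.758 to 1.36 CPM in Sham and 1.29 to 2.34 CPM in BCAS mice. The summed Schwann cell markers were at 1.28 to 3.31 CPM in Sham and 1.66 to 3.11 CPM in BCAS mice, and among them Pmp2 had at most 3 counts in every library. The part of any of these cell types in the Ngfr level was not tested.

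**Figure D2:**
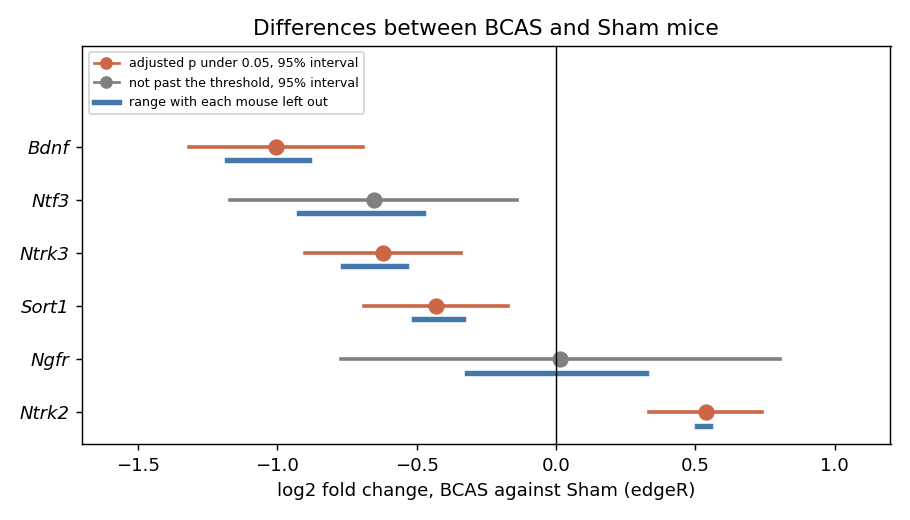
Log2 fold change of BCAS against Sham (edgeR) for the 6 tested genes. Points and thin lines are estimates and 95% intervals, orange where the adjusted p was under 0.05 and grey otherwise, and the thick blue lines give the range when each mouse is left out in turn. Bdnf is furthest below 0 at -1.004, Ntrk2 alone is above 0 with its interval, and the interval of Ngfr spans 0.

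Neuronal markers fell beside Bdnf, Ntrk3 and Sort1. Of the CA1 pyramidal markers 5 of 6 fell, of the CA2 and CA3 pyramidal markers 5 of 7, of the dentate granule markers 3 of 6 and of the interneuron markers 5 of 7. Among all tested genes 13.2% were lower in BCAS mice. By edgeR, DESeq2 or limma-voom 0 of these 26 markers rose, also 0 at an unadjusted p under 0.05. The CA2 and CA3 sum was 473.6 to 497.7 CPM in Sham mice and 343.2, 298.6 and 217.8 CPM in BCAS mice 1, 2 and 3, an order that Ntrk3 and Sort1 followed within the BCAS group. The dentate granule sum overlapped between the groups, with 399.7, 445.3 and 316.5 CPM in Sham mice 1, 2 and 3 and 444.4, 221.3 and 330.5 CPM in BCAS mice 1, 2 and 3. Bdnf and Ntf3 had the dentate order within the BCAS group, mouse 1, then 3, then 2, which is also the order of the astrocyte and choroid plexus sums. The interneuron sum was 885.3 to 990.9 CPM in Sham and 582.6 to 682.1 CPM in BCAS mice. Within the BCAS group the CA1 and interneuron sums had the order mouse 2, then 1, then 3, which none of Bdnf, Ntf3, Ntrk3 and Sort1 followed. The part of these cell types in the falls of Bdnf, Ntrk3 and Sort1 was not tested, and an order of 3 mice is a description only.

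**Figure D3:**
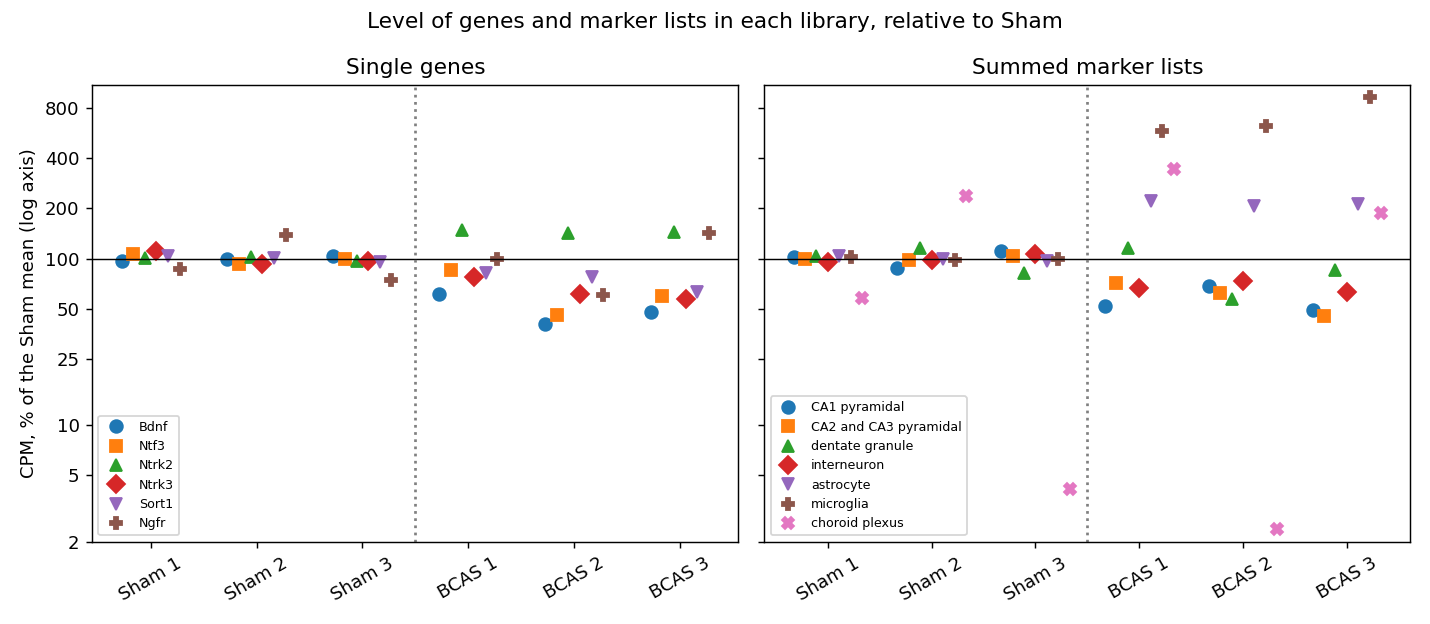
CPM in each library as a percentage of the Sham mean, on a log axis, for 6 genes (left) and for the summed markers of 7 cell types (right). Ntrk2 and the astrocyte and microglial sums are above 100% in every BCAS mouse, Bdnf and the CA1 sum are below it, and the choroid plexus sum runs from 2.38% to 346% across the libraries.

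Levels between genes were compared per length, as CPM divided by the kilobases of annotated exon (RPKM). In Sham mice the order was Sort1 at 93.2 ± 4.21, Ntrk2 at 30.7 ± 1.01, Bdnf at 8.85 ± 0.344, Ntrk3 at 7.26 ± 0.722, Ntf3 at 3.94 ± 0.276, Ngfr at 0.908 ± 0.309 and Gdnf at 0.0938 ± 0.0654 RPKM (SD, n = 3), and no neighbours in this order overlapped. In BCAS mice it was Sort1 at 69.1 ± 8.97, Ntrk2 at 44.6 ± 1.18, Ntrk3 at 4.72 ± 0.774, Bdnf at 4.41 ± 0.922, Ntf3 at 2.499 ± 0.780 and Ngfr at 0.918 ± 0.373 RPKM, with Gdnf last. In BCAS mice the ranges of Ntrk3 and Bdnf overlapped. Their order there rests on the length used: without the bases shared with antisense genes, where reads were not counted, Bdnf was at 5.15 ± 1.08 RPKM in BCAS mice and came before Ntrk3, and at 10.3 ± 0.402 RPKM in Sham mice, also before Ntrk3 (SD, n = 3 each; lengths chosen after the data were seen). Among the tested genes Bdnf stood above 70.9% in Sham and 52.5% in BCAS mice, and Ntrk2 above 91.4% and 95.2%. The exon length sums all annotated exons of a gene, so a gene whose annotated exons are seldom used together, as with the 43 merged exons of Ntrk3, can be placed too low.

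Ratios of pairs of these genes within a library do not depend on library scaling, and 3 were tested with an exact two-sided permutation test, for which 3 against 3 mice cannot give a p below 0.1. The log2 ratio of Ntrk2 to Ntrk3 was 1.95, 2.22 and 2.08 in Sham mice 1, 2 and 3, and 3.04, 3.30 and 3.41 in BCAS mice 1, 2 and 3. The mean ratio went from 4.24 to 9.52, a log2 difference of 1.17 with no overlap (exact permutation p = 0.1, adjusted over the 3 ratios 0.15). The log2 ratio of Bdnf to Ntf3 was 1.02, 1.25 and 1.23 in Sham mice and 0.69, 1.00 and 0.83 in BCAS mice, a difference of -0.33 without overlap (exact permutation p = 0.1, adjusted 0.15). The highest BCAS ratio lay just under the lowest Sham ratio. The log2 ratio of Ngfr to Ntrk2 differed by -0.56 and overlapped (exact permutation p = 0.4, adjusted 0.4).

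**Figure D4:**
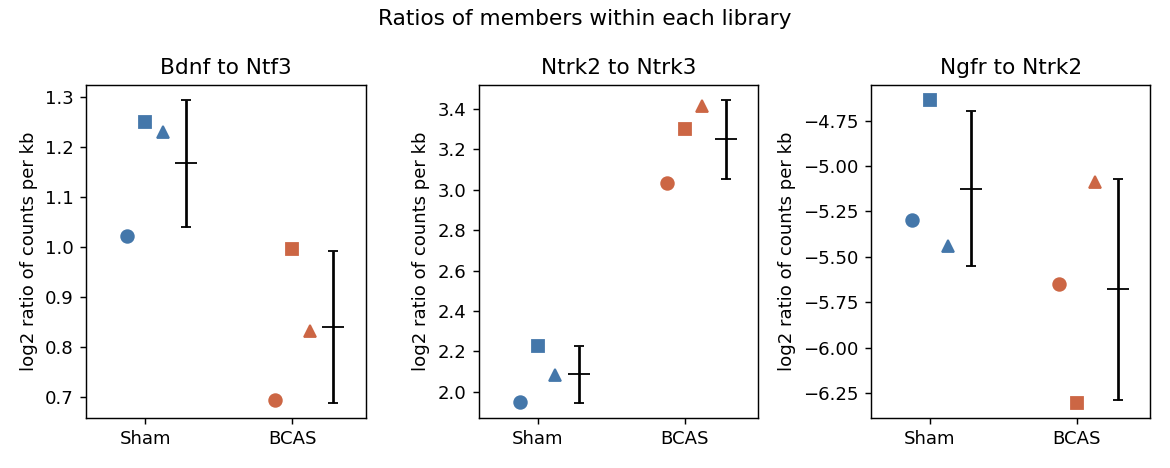
Log2 ratio of counts per kilobase within each library for Bdnf to Ntf3, Ntrk2 to Ntrk3 and Ngfr to Ntrk2. Circles, squares and triangles are mice 1, 2 and 3 of each group and the bars are mean and SD (n = 3); each panel has its own axis, which does not start at 0. The groups are apart for the first and second ratio and overlap for the third.

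The genes most like each member over the 6 libraries were named by Pearson's r of log2 CPM among 15625 genes, as a description, since a difference between the groups that genes share is enough for a high r. For Bdnf these were Mtch2 (r = 0.9986), Has3 (0.9964) and Casd1 (0.9945), and for Ntf3 Ampd2 (0.9952), Atp2c1 (0.9951) and Prss35 (0.9909). For Ntrk2 they were Bmpr1b (0.9973), a BMP receptor, Gimap3 (0.9964) and Clu (0.9961), which encodes clusterin, and for Ntrk3 Inip (0.9966), Robo1 (0.9950) and Bcl11b (0.9941). For Sort1 the closest was Celsr2 (0.9997), at chr3:108390851-108415552, 29340 bp away on the other strand, and then Sipa1l1 (0.9984) and Cds2 (0.9983). Ngfr had Cnep1r1 (0.9807), Nipal4 (0.9762) and Zfp410 (0.9760). An r above 0.9 was reached by 907 genes for Bdnf, 2234 for Ntrk2, 1748 for Sort1 and 36 for Ngfr.

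Around the 7 genes, 9 lists of pathway genes held 131 genes, of which 123 were tested, 30 rose (24.4%) and 29 fell (23.6%), beside 18.0% and 13.2% of all tested genes. Their median log2 fold change was -0.03. Among the lists with more than 1 tested gene, the lowest median belonged to the 14 genes known to respond to BDNF, at -0.81, of which 9 fell, 1 rose and 4 did not pass. Nptx2, which encodes a pentraxin that clusters glutamate receptors, went from 29.8, 24.8 and 28.8 CPM in Sham mice 1, 2 and 3 to 13.8, 10.3 and 9.39 CPM in BCAS mice 1, 2 and 3 (log2 fold change -1.31, adjusted p = 0.000429 by edgeR). Arc, the activity-regulated cytoskeletal gene, went from 99.2, 166.3 and 142.7 CPM to 42.7, 65.6 and 70.4 CPM (log2 fold change -1.19, adjusted p = 0.00406 by edgeR). For both genes the groups did not overlap. Egr2, a transcription factor of the early growth response family, rose from a mean of 1.63 to 5.47 CPM (log2 fold change 1.75, adjusted p = 0.00135 by edgeR). These genes respond to neuronal activity and other signals as well as to BDNF. Neuronal marker lists had median log2 fold changes of -0.95 for the CA1 and -0.89 for the CA2 and CA3 pyramidal markers, and their part in this list was not tested.

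Among 12 transcription regulators of Bdnf, 2 rose (16.7%), 1 fell (8.33%) and 9 did not pass, with a median log2 fold change of -0.09, shares near or below the 18.0% and 13.2% of all tested genes. Npas4, an activity-dependent transcription factor, was at 7.94, 15.9 and 10.3 CPM in Sham mice 1, 2 and 3 and 6.74, 5.50 and 4.26 CPM in BCAS mice 1, 2 and 3 (log2 fold change -1.05, adjusted p = 0.0178 by edgeR), a call lost without Sham mouse 2 (adjusted p = 0.0575) or BCAS mouse 3 (adjusted p = 0.0549). Rest, a repressor of neuronal genes, rose from 6.99, 9.46 and 5.28 CPM to 11.8, 13.1 and 16.5 CPM (log2 fold change 0.93, adjusted p = 0.0126 by edgeR), a call lost without Sham mouse 1 (adjusted p = 0.0553). Crtc2, a CREB coactivator, rose by a log2 fold change of 0.30 (adjusted p = 0.041), and passed in 7 of 15 alternative settings. It lost its call with DESeq2 (adjusted p = 0.0507), with no low-count filter (0.0762), with the replicate block (0.0751), and without Sham mouse 1, 2 or 3 or BCAS mouse 1 or 3 (0.0866 to 0.142).

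The proteases and inhibitors of proneurotrophin cleavage moved both ways. Of 13, 11 were tested, 5 rose (45.5%), 2 fell (18.2%) and 4 did not pass, with a median log2 fold change of 0.14. Among all tested genes 18.0% were higher and 13.2% lower, so the share that fell lay near that of all tested genes. Mmp3, which encodes the matrix metalloprotease stromelysin-1, had 2, 2 and 0 counts in Sham mice, all at the floor, and 17, 908 and 439 counts in BCAS mice 1, 2 and 3. This was at least 168-fold higher in the BCAS mean than a floor of 3 counts per Sham library, and at least 5.91-fold higher in BCAS mouse 1, the lowest, and edgeR called it (adjusted p = 0.00472) while limma-voom did not (0.21). The proprotein convertases on the list, which cut proforms inside the cell, went both ways. Furin rose from 39.9 to 51.5 CPM (log2 fold change 0.37, adjusted p = 0.0116 by edgeR) and Pcsk6 from 25.7 to 37.8 CPM (log2 fold change 0.56, adjusted p = 0.00474). Pcsk5 (log2 fold change -0.075, adjusted p = 0.749) and Pcsk7 (log2 fold change 0.14, adjusted p = 0.361) did not pass, and these 4 were named after their values were seen. Pcsk2 fell from 250 to 175.8 CPM (log2 fold change -0.51, adjusted p = 0.0125), a call lost without Sham mouse 2 (adjusted p = 0.0534), and Pcsk1 from 36.1 to 23.9 CPM (log2 fold change -0.60, adjusted p = 0.0366). Pcsk1 passed in 9 of 15 alternative settings and lost its call with scaling by library totals (adjusted p = 0.0575) and without Sham mouse 1, 2 or 3 or BCAS mouse 1 or 3 (0.0531 to 0.138).

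The relatives of sortilin, 4 receptors with a Vps10p domain, gave 2 falls (50%, beside 13.2% of all tested genes) and 2 without a call. Sorcs3, a postsynaptic member, fell from 48.67 to 27.98 CPM (log2 fold change -0.80, SE 0.16), and Sorl1, a sorting receptor for the amyloid precursor protein, from 338.5 to 251.1 CPM (log2 fold change -0.43, SE 0.10). Sorl1 lost its call without Sham mouse 1 (adjusted p = 0.0512). Of the 15 partners and adaptors of p75, 5 rose, 5 fell and 5 did not pass, with a median of 0.19. The calls were 33.3% in each direction, beside 18.0% higher and 13.2% lower among all tested genes. Arhgdib, known from blood cells, rose by a log2 fold change of 2.14 (SE 0.21), and Nradd, a death-domain homologue of p75, by 1.62 (SE 0.31). Lingo1, which forms the Nogo receptor complex with p75, fell (log2 fold change -0.73, SE 0.15), as did Ndn, which encodes necdin (-0.52, SE 0.10).

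The largest list was the adaptors and kinases that work below the Trk receptors. Of its 44 genes 9 rose, 8 fell and 27 did not pass, with a median log2 fold change of 0.06. Those shares, 20.5% higher and 18.2% lower, lie near the 18.0% and 13.2% of all tested genes. Plcg2, a phospholipase C gamma found mainly in immune cells and microglia, rose from 7.08, 5.27 and 4.11 CPM in Sham mice 1, 2 and 3 to 23.4, 22.2 and 35.1 CPM in BCAS mice 1, 2 and 3 (log2 fold change 2.29, adjusted p = 0.000197 by edgeR). The neuronal form that binds Trk receptors, Plcg1, was at 69.6 CPM in Sham and 73.3 CPM in BCAS mice (log2 fold change 0.08, adjusted p = 0.561), and was named after its value was seen. Rps6ka1, a ribosomal S6 kinase, rose (log2 fold change 1.504, SE 0.19). Map2k1, the kinase MEK1, fell from 379.4 to 263.1 CPM (log2 fold change -0.53, SE 0.12), and Hras from 104.8 to 72.8 CPM (log2 fold change -0.52, SE 0.11).

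Of the 12 other ligands and receptors of the GDNF family, 9 were tested, 1 rose, 1 fell (11.1% each, below the shares of all tested genes) and 7 did not pass, with a median log2 fold change of 0.03. Sdc3, which encodes syndecan-3, a heparan sulphate receptor for GDNF, went from 220.5, 209.0 and 222.4 CPM in Sham mice to 288.4, 340.7 and 389.7 CPM in BCAS mice 1, 2 and 3 (log2 fold change 0.64, adjusted p = 0.00294 by edgeR). Gfra4, the co-receptor for persephin, fell from 54.3 to 35.5 CPM (log2 fold change -0.62, SE 0.13). The GDNF receptor genes Gfra1, at 59.9 and 61.2 CPM in Sham and BCAS mice, and Ret, at 4.71 and 4.93 CPM, did not pass (adjusted p = 0.83 and 0.896 by edgeR) and were also named after their values were seen.

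Of 14 other trophic factors of neurons and glia, 13 were tested, 7 rose, 0 fell and 6 did not pass by edgeR, with a median log2 fold change of 0.84, beside 18.0% of all tested genes higher and 13.2% lower. At an unadjusted p under 0.05 edgeR gave 1 lower gene, and DESeq2 and limma-voom each called 1 lower. Tgfb1, transforming growth factor beta 1, rose from 7.998, 5.99 and 9.24 CPM in Sham mice 1, 2 and 3 to 36.04, 41.6 and 63.0 CPM in BCAS mice 1, 2 and 3 (log2 fold change 2.60, adjusted p = 9.65e-05 by edgeR). Igf1, insulin-like growth factor 1, rose from 10.1, 8.68 and 8.89 CPM to 22.6, 36.2 and 40.8 CPM (log2 fold change 1.85, adjusted p = 0.000289 by edgeR). Neither gene overlapped between the groups, both are made by microglia among other cells, and the part of the microglial rise in them was not tested.

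**Figure D5:**
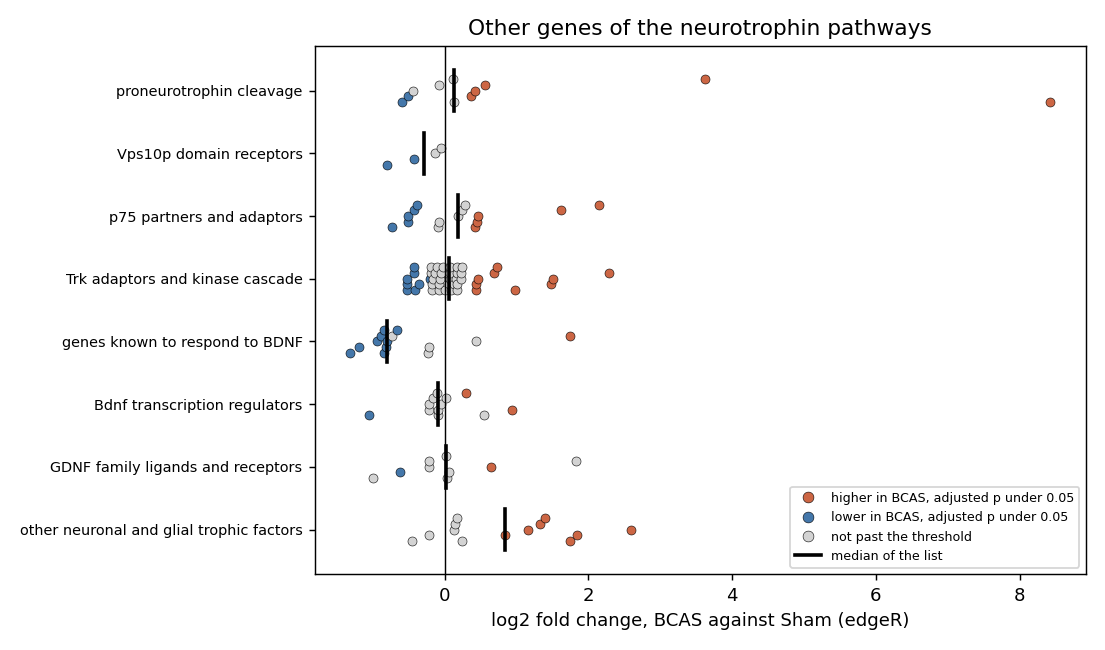
Log2 fold change of BCAS against Sham (edgeR) for the 122 tested genes of the 8 pathway lists with more than 1 tested gene. Points are genes, orange where higher and blue where lower with an adjusted p under 0.05 and grey otherwise, and black bars are list medians; Mmp3 is drawn at its fitted value, which depends on the prior count because its Sham libraries were at the floor. The genes known to respond to BDNF have the lowest median (-0.81) and the other trophic factors the highest (0.84).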

How the data were processed

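RNA-seq was made from the right hippocampus of 6 mice, 3 per group by the labels. The authors used Trim Galore for trimming, HISAT2 for alignment to mm10 and featureCounts for gene counts (1.6.3 in the methods, 2.0.3 in the file headers). The deposited counts are raw whole numbers. Per the file headers, each mate of a pair gave its own count, strand was not used, and multi-mapping reads and reads on several genes were left out. Genes covered 54752 Ensembl IDs, of which 29 had no symbol, and 31988 had counts.

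Genes were filtered with filterByExpr (18617 kept), scaled by TMM, and tested by edgeR's quasi-likelihood method (edgeR 4.0.16, R 4.3.3) without covariates, with Benjamini-Hochberg adjusted p-values over all tested genes. Passing meant an adjusted p under 0.05. The log2 CPM used a prior count of 2. The steps were tested on simulated data. The alternatives were DESeq2 1.42.0, limma-voom (limma 3.58.1), other scalings and filters, counts halved, a replicate block, leaving out each mouse, and, chosen after seeing the data, a choroid plexus covariate and exon lengths without shared bases. The members and the lists (9 of pathway genes, 16 of cell type markers) were chosen with earlier results of these data known. The text names the members, Ntf5, the 2 largest rises and falls that passed in each pathway list at a mean of at least 1 CPM, and the 3 genes most correlated with each member. Some genes that this rule selects are not reported here. Start sites, names and promoter windows came from RefSeq on GRCm38.p6, which matched 5 of the 7 genes, and Ntrk3 and Sort1 were left without a window. The floor of 3 counts covers counting error only.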

Additional observations from a re-analysis of the deposited data

How the results depend on the processing

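Among the 7 genes, 1 passed the test higher and 3 lower in BCAS mice, beside 18.0% and 13.2% of all tested genes. Over the 15 alternatives the number higher stayed at 1 and the number lower ran from 2 to 4. The share of all tested genes called higher ran from 10.9% with no low-count filter to 20.7% with library totals. The share called lower ran from 6.58% without Sham mouse 3 to 16.1% without BCAS mouse 2. Bdnf, Ntrk2 and Ntrk3 kept their calls in 15 of 15, Sort1 in 13 of 15, and Ngfr passed in 0 of 15 by edgeR, DESeq2 or limma-voom. Ntf3 passed with DESeq2 (adjusted p = 0.0228), limma-voom (0.0418), RLE size factors (0.049), no low-count filter (0.0266), the choroid plexus covariate (0.0255) and the replicate block (0.0468), and without BCAS mouse 1 (0.0118). The log2 fold change of Ngfr, 0.02, changed sign to -0.003 with DESeq2, -0.008 with limma-voom, -0.002 with the replicate block and -0.072 with the choroid plexus covariate, and ran from -0.32 to 0.32 when each mouse was left out in turn (-0.08 without Sham mouse 1, -0.16 without Sham mouse 3, -0.32 without BCAS mouse 3), and the cause was not tested. Of the pathway genes, 30 were higher and 29 lower, with the replicate block 27 and 27, with library totals 35 and 26, without BCAS mouse 2 31 and 36, and without Sham mouse 2 26 and 22. The shares of all tested genes also moved, to 14.9% higher and 9.40% lower with the replicate block and 20.7% and 9.60% with library totals. They were 18.6% and 16.1% without BCAS mouse 2, and 13.7% and 7.39% without Sham mouse 2. Over the 15 alternatives the counts of pathway genes ran from 25 to 35 higher and from 22 to 36 lower. The replicate numbers did not pair the mice (correlations of deviations between same-numbered mice 0.036, -0.31 and -0.16). Scaling by library totals moved the median of all tested genes to a log2 fold change of 0.09. With the exonic bases shared with another gene left out of the lengths, which was added after the data were seen, 7 genes had the same place in the order of levels in Sham and 5 in BCAS mice. Gdnf and Ntf5 had few counts, and p-values rest on 3 mice a group.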

Other observations

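The remaining marker lists gave the following counts. Of the endothelial markers 4 of 6 rose in BCAS mice, of the pericyte and smooth muscle markers 4 of 7, of the fibroblast and meningeal markers 5 of 7, of the T cell markers 3 of 4, of the ependymal markers 2 of 4 and of the oligodendrocyte precursor markers 2 of 5 (edgeR, adjusted p under 0.05, beside 18.0% of all tested genes). The T cell markers were low, summing to 0.413 to 1.08 CPM in Sham and 3.11 to 4.26 CPM in BCAS mice. Of the 7 oligodendrocyte markers 0 passed by edgeR, with 1 higher at an unadjusted p under 0.05, 1 higher by DESeq2 and 0 by limma-voom, and their sums overlapped, at 5217 to 6395 CPM in Sham and 5964 to 9010 CPM in BCAS mice. The ependymal sums overlapped as well, at 21.8 to 29.5 CPM in Sham and 28.7 to 51.8 CPM in BCAS mice. The fibroblast list holds Igf2, which also belongs to the trophic factors, and its summed level was 91.7 to 191.5 CPM in Sham and 192.7 to 325.3 CPM in BCAS mice.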
